A study of Rattus norvegicus with 24 samples.

Results

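Lysosomal cathepsins and lysosomal membrane proteins were followed in trained rat muscle through 10 genes: Ctsa, Ctsb, Ctsc, Ctsd, Ctsh, Ctsk, Ctsl, Ctss, Lamp1 and Lamp2. The genes were taken by symbol from the transcript table, the values of a gene's transcripts were added up, and all 10 were found among 15273 gene symbols. RNA came from the tibialis anterior, the shin muscle that lifts the foot, of adult male Wistar rats. An implanted pulse generator made the left muscle contract against resistance in 1 daily session, and both muscles were taken about an hour after the last session. The 4 trained groups were left muscles after 2, 10, 20 and 30 days of training, each with 3 muscles, and the control group was the unstimulated right muscle of the same 12 rats. No library of an untrained rat was used among these 24, so the control was the other leg of a trained animal. The labels held 3 animals for each time point, whereas the series description gave 4.

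Cathepsins are proteases that digest proteins inside the acidic lysosome. They are made as inactive precursors, carried to the lysosome by mannose-6-phosphate receptors and activated there by cleavage. LAMP1 and LAMP2 are the heavily glycosylated proteins that line the inner face of the lysosomal membrane, and LAMP2 is also needed for the fusion of autophagosomes with lysosomes in muscle, where its loss causes Danon disease. In skeletal muscle the lysosome clears proteins and organelles brought in by autophagy, and macrophages and fibroblasts between the fibers carry the same enzymes.

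Of the 10 genes, 7 rose at 2 days, and 6 rose at each of 10, 20 and 30 days, by limma with p-values adjusted over 11196 genes at a threshold of 0.05. None fell by this test, although the 2-day change of Ctsd (-0.25, adjusted p = 0.053) was a fall past the threshold under 10 of 34 alternatives, and Ctsd and Lamp1 fell at 30 days in the values as deposited. Over all genes tested, 15.4% rose and 13.5% fell at 2 days, 15.6% rose and 13.3% fell at 10 days, 11.7% rose and 9.64% fell at 20 days, and 11.1% rose and 9.46% fell at 30 days. Ctsa, Ctsb, Ctsh, Ctsk and Ctss rose at all 4 time points, which made 5 of 10 genes against 5.24% of all genes that rose and 2.95% that fell at all 4. Without the second trained muscle at 2 days this count was 2 of 10 (Ctsa and Ctsb) against 3.98% of all genes, and without the third it was 3 (Ctsa, Ctsb and Ctss) against 4.52%. The count was 4, without Ctsa, with the animal as a replicate block, against 3.64%, and with the control muscles of each time point alone 3 (Ctsb, Ctsh and Ctsk) against 2.93%. The 4 comparisons shared the same 12 control muscles. Levels are TPM-type values, which are per transcript length, divided by a scaling factor for each library, and each fold change is on the scale of log2(value + 1), which understates the change of genes with low values. Fewer cells of a type and less RNA per cell cannot be told apart in whole muscle, and the same holds for more of either.

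**Figure D1:**
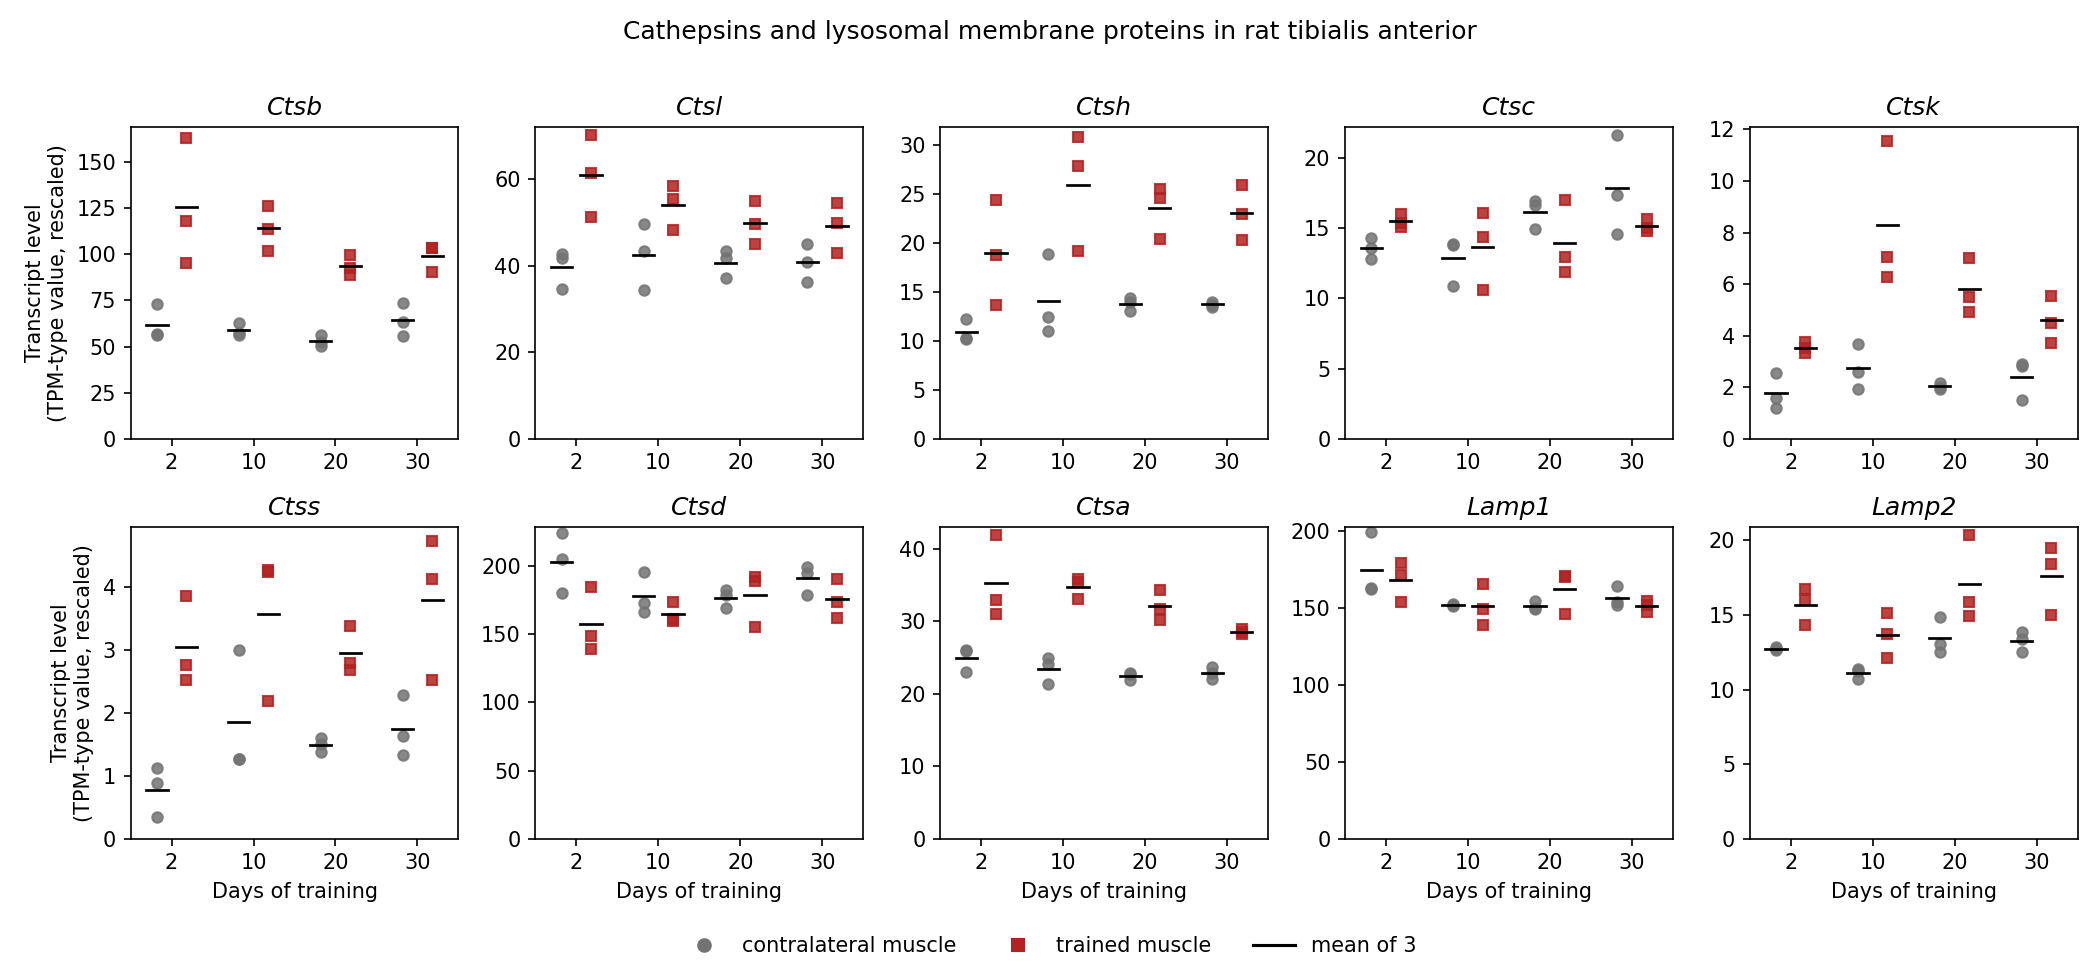
Level of each gene (vertical axis, rescaled TPM-type value) against days of training (horizontal axis) in 24 muscles. Gray circles are contralateral muscles, red squares are trained muscles and black lines are means of 3 muscles. All 12 trained muscles lay above all 12 contralateral muscles for Ctsb and Ctsa, and the groups overlapped for Ctsc, Ctsd and Lamp1.

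In the contralateral muscles the most abundant of these messages was Ctsd, with a median of 181, followed by Lamp1 with 153 and Ctsb with 56.6. Below them came Ctsl with 41.7, Ctsa with 23.0, Ctsc with 14.4, Ctsh with 13.2 and Lamp2 with 12.7. Ctsk, with a median of 2.09, and Ctss, with 1.36, were the lowest. This order held between neighbors in all 12 contralateral libraries except that Ctsc lay above Ctsh in 10 of 12, Ctsh above Lamp2 in 6 of 12 and Ctsk above Ctss in 11 of 12, so that Ctsh and Lamp2 could not be ordered. In trained muscles Ctsc lay above Ctsh in 1 of 12 libraries and Ctsd above Lamp1 in 9 of 12. Of the summed level of the 10 genes, Ctsd made up 36.4% ± 1.32 (SD, n = 12) in control muscles and 26.2% ± 4.75, 28.2% ± 0.606, 30.8% ± 1.97 and 30.9% ± 2.50 (SD, n = 3 each) in trained muscles at 2, 10, 20 and 30 days. Ctsb made up 11.5% ± 0.871 (SD, n = 12) in control and 20.6% ± 4.15, 19.5% ± 1.32, 16.1% ± 0.343 and 17.5% ± 1.36 (SD, n = 3 each) in trained muscles. These shares were not tested.

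Ctsb encodes cathepsin B, a cysteine protease that cuts within proteins and also removes dipeptides from their ends. Its single transcript, Ctsb-201, lay at chr15:46316741-46337612 on the plus strand of Rnor_6.0. Control levels ran from 50.2 through a median of 56.6 to 73.6, and the 3 trained muscles had 95.1, 163 and 118 at 2 days, 126, 114 and 102 at 10 days, 99.8, 92.5 and 88.7 at 20 days and 90.2, 104 and 104 at 30 days. Every trained muscle stood above every control muscle, and the second animal at 2 days was the highest of all. The log2 fold change was 1.04 (SE 0.12, adjusted p = 1.1e-06) at 2 days, 0.93 (SE 0.12, adjusted p = 4.1e-06) at 10 days, 0.65 (SE 0.12, adjusted p = 0.00044) at 20 days and 0.73 (SE 0.12, adjusted p = 0.00017) at 30 days. The mean level was 2.11 times that of control at 2 days and 1.67 times at 30 days, and the trained leg was higher in 12 of 12 animals.

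Ctsl encodes cathepsin L, a cysteine endopeptidase known as a marker of muscle protein loss. Its transcript, Ctsl-201, lay at chr17:1872848-1879279 on the minus strand. The 12 control muscles ran from 34.3 through 41.7 to 49.7, against 51.1, 70.1 and 61.4 at 2 days, 58.4, 55.5 and 48.3 at 10 days, 54.8, 45.1 and 49.6 at 20 days and 42.9, 49.8 and 54.4 at 30 days. The trained muscles cleared the control range at 2 days and reached into it at 10, 20 and 30 days. Ctsl rose by 0.56 on the log2 scale (SE 0.11, adjusted p = 0.00047) at 2 days and by 0.40 (SE 0.11, adjusted p = 0.0084) at 10 days. The change was 0.28 (SE 0.11, adjusted p = 0.071) at 20 days and 0.26 (SE 0.11, adjusted p = 0.10) at 30 days, neither past the threshold. In the deposited gene-level table both passed, at 0.31 (adjusted p = 0.019) and 0.28 (adjusted p = 0.029). With the animal as a replicate block the 10-day change was 0.35 (adjusted p = 0.061), with the control muscles of each time point alone it had an adjusted p of 0.11, and without the first animal at 10 days it was 0.34 (adjusted p = 0.075). Without the first control muscle of the 10-day animals, the 20-day change passed, at 0.31 (adjusted p = 0.041). The trained leg was higher in 12 of 12 animals, by 0.14 to 0.81 on the log2 scale.

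Ctsk encodes cathepsin K, the collagen-degrading cysteine protease best known from osteoclasts. Its transcript, Ctsk-201, lay at chr2:196655469-196666446 on the plus strand. Control levels were low, from 1.21 through 2.09 to 3.69, and the trained muscles had 3.35, 3.52 and 3.75 at 2 days, 11.6, 7.04 and 6.28 at 10 days, 7.02, 4.92 and 5.48 at 20 days and 4.49, 5.54 and 3.73 at 30 days. At 2 days a single trained muscle lay above the control range, whereas at 10, 20 and 30 days all 3 did. Ctsk rose by 0.52 on the log2 scale (SE 0.18, adjusted p = 0.033) at 2 days, 1.51 (SE 0.18, adjusted p = 7.3e-07) at 10 days, 1.09 (SE 0.18, adjusted p = 8.5e-05) at 20 days and 0.80 (SE 0.18, adjusted p = 0.0022) at 30 days, and the 10-day mean was 3.70 times that of control. The 2-day call was lost on leaving out the first (adjusted p = 0.056), the second (adjusted p = 0.12) or the third trained muscle (adjusted p = 0.12). With the animal as a replicate block it held, at 0.74 (adjusted p = 0.0053), and the trained leg was higher in 12 of 12 animals.

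Ctss encodes cathepsin S, a cysteine protease of antigen-presenting cells that trims the invariant chain from MHC class II molecules. Its transcript, Ctss-201, lay at chr2:197655786-197679458 on the plus strand, on the same chromosome as Ctsk. In control muscles Ctss ran from 0.345 through 1.36 to 3.00, against 2.76, 3.85 and 2.52 at 2 days, 4.25, 4.27 and 2.19 at 10 days, 3.39, 2.79 and 2.69 at 20 days and 2.52, 4.73 and 4.13 at 30 days. Trained and control muscles overlapped at each time point, and the highest control value belonged to the first of the 10-day animals. Ctss rose by 0.75 on the log2 scale (SE 0.21, adjusted p = 0.011) at 2 days, 0.90 (SE 0.21, adjusted p = 0.0025) at 10 days, 0.72 (SE 0.21, adjusted p = 0.017) at 20 days and 0.97 (SE 0.21, adjusted p = 0.0020) at 30 days, and the trained leg was higher in 12 of 12 animals. With the block the 2-day change was 1.19 (adjusted p = 0.0015), the control muscles of the 2-day animals having a mean of 0.782 against 1.47 for all 12. The 2-day change was 0.61 (adjusted p = 0.12) without the second trained muscle, and the 20-day change was 0.65 (adjusted p = 0.094) without the first and 0.75 (adjusted p = 0.051) without the second. With the control muscles of each time point alone the 20-day change was 0.66 (adjusted p = 0.068). Ctss was also, of the 10 genes, the one with the fewest reads per 1000 bases of transcript, with a median over 24 libraries of 20.2 and a lowest value of 3.03. At these depths counting error alone gives an SD of 22.2% and 57.4% over a stretch of 1000 bases. The length of the transcript did not enter these percentages.

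Ctsh and Ctsc encode cathepsins that work from the ends of proteins, H as an aminopeptidase and C as a dipeptidyl peptidase that activates the serine proteases of leukocyte granules. Ctsh levels in control muscles ran from 10.2 through 13.2 to 18.9, and the trained muscles had 13.6, 24.4 and 18.8 at 2 days, 30.8, 27.9 and 19.2 at 10 days, 24.7, 20.4 and 25.6 at 20 days and 20.3, 25.9 and 23.0 at 30 days. A pair of the 2-day muscles lay within the control range, and all later trained muscles lay above it. Ctsh rose by 0.48 on the log2 scale (SE 0.16, adjusted p = 0.025) at 2 days, 0.92 (SE 0.16, adjusted p = 8.9e-05) at 10 days, 0.81 (SE 0.16, adjusted p = 0.00057) at 20 days and 0.78 (SE 0.16, adjusted p = 0.0010) at 30 days, with the trained leg higher in 12 of 12 animals. The 2-day change was 0.29 (adjusted p = 0.32) without the second trained muscle and 0.47 (adjusted p = 0.091) without the third. Its values were the sum of Ctsh-201, with 53.6% of the total, and Ctsh-202, with 46.4%, both on chromosome 8. With Ctsh-201 alone, neither the 2-day change (0.43, adjusted p = 0.28) nor the 30-day change (0.60, adjusted p = 0.14) passed.

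Ctsc passed at none of the time points. It ran from 10.9 through 14.4 to 21.6 in control muscles and from 10.6 to 17.0 in trained muscles, of which a single one, the third at 10 days, lay outside the control range. Its log2 changes were 0.05, -0.14, -0.11 and 0.02 at 2, 10, 20 and 30 days (SE 0.14 each, adjusted p = 0.82, 0.50, 0.64 and 0.93), and the trained leg was higher in 7 of 12 animals. With the block they were 0.18, 0.07, -0.22 and -0.21 (adjusted p = 0.34, 0.74, 0.26 and 0.32), of the other sign at 10 and 30 days.

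Ctsd encodes cathepsin D, the aspartic protease of the lysosome. Its transcript, Ctsd-201, lay at chr1:215541542-215553451 on the minus strand. The control muscles ran from 166 through 181 to 224, and the trained muscles had 184, 148 and 139 at 2 days, 174, 159 and 161 at 10 days, 189, 192 and 155 at 20 days and 191, 162 and 174 at 30 days. At 2 and 10 days all but the first trained muscle lay below the control range, and at 20 and 30 days a single muscle did. The log2 change was -0.25 (SE 0.10, adjusted p = 0.053) at 2 days, -0.18 (adjusted p = 0.18) at 10 days, -0.07 (adjusted p = 0.68) at 20 days and -0.09 (adjusted p = 0.56) at 30 days. With the animal as a replicate block the 2-day change was -0.37 (adjusted p = 0.029) and the later changes were -0.11, 0.01 and -0.12 (adjusted p = 0.53, 0.96 and 0.52), and the trained leg was higher in 2 of 12 animals, both at 20 days. The 2-day change also passed with the control muscles of each time point alone (adjusted p = 0.037), in the gene-level table (-0.22, adjusted p = 0.036), with an intensity trend (adjusted p = 0.042), with low values kept in (adjusted p = 0.046) and among genes with a mean of at least 10 (adjusted p = 0.032). It did so too on leaving out the first trained muscle at 2 days (-0.37, adjusted p = 0.011), the second control muscle at 10 days (-0.27, adjusted p = 0.045), the third control muscle at 20 days (-0.27, adjusted p = 0.048) or the third trained muscle at 20 days (-0.25, adjusted p = 0.044).

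Ctsa encodes cathepsin A, a serine carboxypeptidase that also protects the lysosomal enzymes beta-galactosidase and neuraminidase from breakdown. Its transcript, Ctsa-201, lay at chr3:161298962-161304625 on the plus strand. Control levels ran from 21.4 through 23.0 to 26.0, and the trained muscles had 32.9, 41.9 and 31.1 at 2 days, 35.4, 35.8 and 33.0 at 10 days, 34.3, 31.6 and 30.2 at 20 days and 28.9, 28.6 and 28.2 at 30 days. No trained muscle reached down into the control range. Ctsa rose by 0.56 on the log2 scale (SE 0.08, adjusted p = 2.1e-05) at 2 days, 0.55 (SE 0.08, adjusted p = 2.2e-05) at 10 days, 0.44 (SE 0.08, adjusted p = 0.00049) at 20 days and 0.28 (SE 0.08, adjusted p = 0.021) at 30 days, and the trained leg was higher in 12 of 12 animals. The 30-day call did not hold with the animal as a replicate block (0.31, adjusted p = 0.074), with the control muscles of each time point alone (adjusted p = 0.072), or on leaving out the first (adjusted p = 0.076), the second (adjusted p = 0.076) or the third trained muscle (adjusted p = 0.065).

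Of the membrane proteins, Lamp2 had calls and Lamp1 had none, whereas with the animal as a replicate block neither had any. The genes were not tested against each other. Lamp1 levels ran from 149 through 153 to 199 in control muscles and from 139 to 179 in trained muscles. Its log2 changes were 0.09, -0.07, 0.03 and -0.06 at 2, 10, 20 and 30 days (SE 0.09 each, adjusted p = 0.49, 0.60, 0.83 and 0.65), and the trained leg was higher in 5 of 12 animals. With the block the changes were -0.05, -0.01, 0.10 and -0.05 (adjusted p = 0.77, 0.96, 0.58 and 0.81), of the other sign at 2 days. Of its 3 transcripts on chromosome 16, Lamp1-201 held 99.6% of the summed value.

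Lamp2 is carried by the X chromosome, with its transcript at chrX:124722628-124766044 on the minus strand. Control levels ran from 10.7 through 12.7 to 14.9, and the trained muscles had 16.0, 16.7 and 14.3 at 2 days, 13.7, 12.1 and 15.1 at 10 days, 15.9, 14.9 and 20.4 at 20 days and 18.4, 15.0 and 19.5 at 30 days. The trained muscles lay above the control range at 20 and 30 days, by a narrow margin for the second animal of each, and overlapped with it at 2 and 10 days. Lamp2 rose by 0.29 on the log2 scale (SE 0.10, adjusted p = 0.034) at 2 days, 0.40 (SE 0.10, adjusted p = 0.0063) at 20 days and 0.45 (SE 0.10, adjusted p = 0.0029) at 30 days, while the 10-day change was 0.10 (SE 0.10, adjusted p = 0.50). With the animal as a replicate block no time point passed, with changes of 0.28 (adjusted p = 0.16), 0.27 (adjusted p = 0.19), 0.31 (adjusted p = 0.14) and 0.38 (adjusted p = 0.089) at 2, 10, 20 and 30 days, so that the 10-day change lay beside that at 2 days, although the trained leg was higher in 12 of 12 animals. With the control muscles of each time point alone the adjusted p was 0.12, 0.098 and 0.054 at 2, 20 and 30 days. The 2-day change was 0.28 (adjusted p = 0.089) without the first trained muscle and 0.25 (adjusted p = 0.20) without the second, and the 20-day change was 0.27 (adjusted p = 0.10) without the third.

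**Figure D2:**
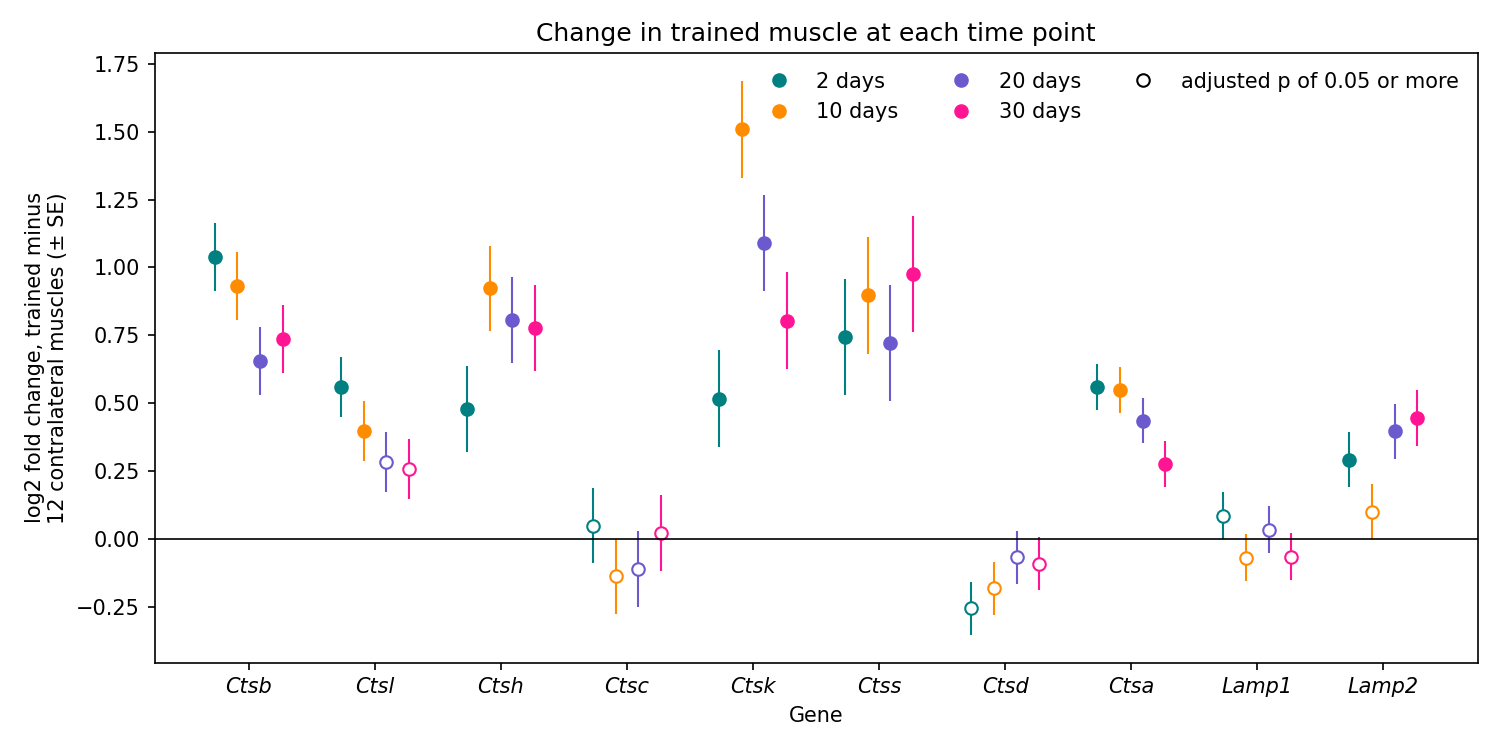
Log2 fold change of each gene (vertical axis, trained group of 3 muscles minus 12 contralateral muscles, with bars of 1 SE) for 2, 10, 20 and 30 days of training in color. Filled points had an adjusted p below 0.05. Ctsk at 10 days, at 1.51, had the highest change of these 40 points, and all points of Ctsc, Ctsd and Lamp1 were open.

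Without the second trained muscle at 2 days, 3 of the 10 genes rose at that time, namely Ctsa, Ctsb and Ctsl. That muscle had the highest of the 3 trained levels at 2 days for each gene but Ctsd and Ctsk. Over all genes, 1492 were called at 2 days without it and 3235 with it. The count at 10 days was 2130 without the first trained muscle, against 3240 with all, and the count at 30 days was 1469 without the second and 1491 without the third, against 2304.

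Whether the level of these genes varied with the length of training was tested next. Of the 10 genes, 1, Ctsk, differed among the 4 trained groups (F test in limma, adjusted p = 0.021), where 12% of all genes did. When the animal is a replicate block, the F test compares the within-animal changes of the 4 time points in place of the trained levels, and Ctsk did not pass it (F = 3.27, adjusted p = 0.31), where 128 of all genes did. A pseudocount of 0.1 (adjusted p = 0.060) and leaving out the second trained muscle at 2 days (adjusted p = 0.063) or the first at 10 days (adjusted p = 0.098) also ended the call on levels. In the values as deposited 5 of the 10 genes passed (Ctsa, Ctsb, Ctsk, Ctsl and Lamp1), where 2533 of 11262 genes did. In the gene-level table, which holds 6 of the 10 and not Ctsk, Ctsa passed (F = 6.27, adjusted p = 0.018), where 1107 of 4635 genes did. Over all genes 680 passed without the second trained muscle at 2 days and 777 without the third, against 1345 with all. None of the 10 genes differed between 30 and 2 days of training by limma, where 15% of all genes did, with 2 of the 10 at an unadjusted p under 0.05. The closest was Ctsa, lower by 0.28 at 30 days (log2 change -0.28, SE 0.11, adjusted p = 0.073). It passed with a mean of at least 10 (adjusted p = 0.037), in the gene-level table (-0.26, adjusted p = 0.011) and without the third trained muscle at 2 days (-0.37, adjusted p = 0.046). Ctsb passed without the first (-0.49, adjusted p = 0.035). In the values as deposited Ctsa, Ctsb, Ctsl and Lamp1 were lower at 30 days, as were 3044 of 11262 genes. The count over all genes was 715 without the second trained muscle at 2 days, 1065 without the third and 1101 without the third at 30 days, against 1677 with all. The difference of the within-animal change at 30 days from that at 2 days was past the threshold for none of the 10 genes by limma and for 2.58% of all genes, with none of the 10 at an unadjusted p under 0.05. With the block it was also past the threshold for none of the 10 and for 314 of all genes. None of the 10 genes differed among the contralateral muscles of the 4 time points by limma, where 0.152% of all genes did. These were 17 genes, and on leaving out 1 muscle 4 to 22, with 4 and 6 without the third and the first control muscle at 2 days and 8 without the second at 10 days. At an unadjusted p under 0.05 there were 2, Ctsc (adjusted p = 0.50) and Ctss (adjusted p = 0.53), and 1012 of 11196 genes.

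Among the comparisons with control, the scaling factor moved the median most at 30 days. In the values as deposited, without the scaling factor, the median log2 change of all genes at 30 days was -0.18, and 647 genes rose and 2590 fell, against 1245 and 1059 with it. The split was 2132 and 731 at 2 days, against 1728 and 1507 with the factor, and 2096 and 682 at 10 days, against 1746 and 1494. Between 30 and 2 days of training the median was -0.27 without the factor, with 250 genes higher and 3044 lower at 30 days, against 791 and 886 with it. At 30 days 4 of the 10 genes then rose (Ctsb, Ctsh, Ctsk and Ctss), while Ctsa changed by 0.06 (adjusted p = 0.68) and Lamp2 by 0.24 (adjusted p = 0.18). In the same values Ctsd, at -0.31 (adjusted p = 0.042), and Lamp1, at -0.29 (adjusted p = 0.031), fell at 30 days. The share of the deposited total held by mitochondrial messages was 39.9%, 43.0% and 43.9% in the 30-day trained muscles and 43.7% in the first of their control muscles, and the other control muscles ran up to 34.6%. The part of this share in the results was not tested.

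Other lysosomal genes were taken from 9 lists, of which 103 genes had enough signal to be tested. At 2 days 18 rose and 11 fell, or 17.5% and 10.7%, near the 15.4% and 13.5% of all genes. The counts were 25 and 10 at 10 days (24.3% and 9.71%, against 15.6% and 13.3%), 20 and 6 at 20 days (19.4% and 5.83%, against 11.7% and 9.64%), and 19 and 7 at 30 days (18.4% and 6.80%, against 11.1% and 9.46%). Their median log2 change was 0.02, 0.01, 0.05 and 0.02 in turn, against -0.01, -0.03, -0.03 and -0.01 for all genes tested. At all 4 time points 12 rose and 3 fell, or 11.7% and 2.91%, against 5.24% and 2.95% of all genes. With the animal as a replicate block 14 rose and 8 fell at 2 days, 19 and 5 at 10 days, 13 and 6 at 20 days, and 10 and 3 at 30 days. Of all genes, 11.8% rose and 9.8% fell with the block at 2 days, 12.1% and 8% at 10 days, 9.94% and 7.42% at 20 days, and 7.21% and 5.09% at 30 days.

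Proteases and their inhibitors lay closest in function to the cathepsins. Of 2 other cysteine cathepsins tested, 1 rose at each time point, and with the block 2 did at 10 days. The gene that rose at each was Ctsz, a carboxypeptidase, with a mean level of 8.37 in control and 16.9 at 2 days (log2 change 0.94, adjusted p = 0.00012). Of 5 other lysosomal proteases, 2, 4, 4 and 2 rose at 2, 10, 20 and 30 days and 1 fell at 30 days, and with the block 3, 2, 2 and 2 rose and 1 fell, at 2 days. Lgmn, the asparagine-specific protease that cleaves cathepsin precursors, went from 10.2 in control to 23.7 at 2 days and 16.5 at 30 days (log2 changes 1.11 and 0.65, adjusted p = 2.8e-08 and 9.9e-05), and Scpep1, a serine carboxypeptidase, from 6.32 to 13.1 at 20 days (0.97, adjusted p = 6.7e-05). Of 3 cathepsin inhibitors tested, 1 rose at 2 days and 2 at each later time. Cstb, the cystatin of the cytosol, went from 10.4 to 23.9 at 30 days (1.14, adjusted p = 4.5e-05), and Cst3, the secreted cystatin C, from 138 to 210.0 (0.60, adjusted p = 0.0027).

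Hydrolases of other substrates were counted next. For comparison, 15.4%, 15.6%, 11.7% and 11.1% of all genes tested rose at 2, 10, 20 and 30 days. The shares that fell were 13.5%, 13.3%, 9.64% and 9.46%. Of 20 glycosidases and sulfatases, 5, 8, 5 and 6 rose at 2, 10, 20 and 30 days, and 1 fell at 2 and 1 at 30 days, while with the block 4, 5, 4 and 2 rose and none fell. Fuca1, which removes fucose, went from 3.10 to 7.26 at 10 days (1.00, adjusted p = 0.00021), and Hexa, a subunit of hexosaminidase, from 11.8 to 21.0 (0.78, adjusted p = 5.0e-06). Of 12 hydrolases and activators for lipids, nucleic acids and phosphates, 2, 3, 3 and 2 rose and 1, 3, 1 and 2 fell, or 1, 3, 2 and 1 and 2, 2, 0 and 0 with the block. Gm2a, the activator that presents the GM2 ganglioside to hexosaminidase, rose from 5.45 to 14.9 at 2 days (1.27, adjusted p = 3.7e-05), whereas Psap, the precursor of the saposins, fell at all 4 time points, from 367 to 256 at 10 days (-0.51, adjusted p = 9.0e-05), although with the block its change did not pass at 20 days (adjusted p = 0.11) or 30 days (adjusted p = 0.079).

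Of 18 other lysosomal membrane proteins, 2 rose at each time point, and 3, 4, 2 and 2 fell at 2, 10, 20 and 30 days. With the block 2, 2, 1 and 0 rose and 3, 2, 2 and 2 fell. Cd63, a tetraspanin of late endosomes and lysosomes, went from 90.2 to 336 at 2 days and 123 at 30 days (log2 changes 1.82 and 0.44, adjusted p = 3.0e-09 and 0.037, the second 0.10 with the block), and Sidt2 fell from 17.5 to 11.9 at 10 days (-0.52, adjusted p = 0.00055). Of 17 subunits of the vacuolar ATPase, the pump that acidifies the lysosome, 4, 2, 1 and 1 rose and none fell, and with the block 1 rose at each time. Atp6v0d1 rose from 30.1 to 40.2 at 2 days (0.40, adjusted p = 0.0011), and Atp6v1h rose at 2 days (0.35, adjusted p = 0.047, and 0.084 with the block).

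Among 13 genes for mannose-6-phosphate tagging and other sorting, none, 1, none and 1 rose and 4, 3, 3 and 1 fell, or 1, 1, 3 and 1 with the block. Sort1, a sorting receptor of the Golgi, fell from 17.6 to 12.7 at 2 days and 6.69 at 30 days (-0.43 and -1.28, adjusted p = 0.016 and 2.7e-07), and Vps33a, a tethering subunit, from 9.50 to 6.65 at 10 days (-0.45, adjusted p = 0.00046, and 0.077 with the block). Of 13 genes of the MiT/TFE transcription factors and lysosomal signaling, 1, 2, 2 and 2 rose and 2 fell at 2 days, while with the block 1, 1, 0 and 0 rose and 1 fell at 2 and 1 at 20 days. Rragc, a Rag GTPase of the lysosomal surface, rose from 12.1 to 16.6 at 2 days (0.41, adjusted p = 0.0038), and Fnip2 from 1.29 to 3.69 at 10 days (0.96, adjusted p = 0.0012).

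Marker lists of other cell types were measured beside the cathepsins. Of 13 macrophage and monocyte markers tested, out of 16 listed, 11, 12, 13 and 13 rose at 2, 10, 20 and 30 days and none fell, or 13, 11, 13 and 13 with the block. Their median log2 change was 1.25, 1.20, 1.06 and 1.13 in turn. Their summed level in control muscles ran from 21.7 through 35.4 to 51.7, and in trained muscles it was 78.0, 195 and 139 at 2 days, 143, 122 and 66.2 at 10 days, 94.4, 94.2 and 105 at 20 days and 89.6, 122 and 103 at 30 days. Every trained muscle lay above the control range, and the second animal at 2 days, which was also the highest for Ctsa, Ctsb and Ctsl, was the highest. That trained muscle also had the highest sums of the leukocyte list, at 195, and of the satellite cell and myoblast list, at 67.6. The fibroblast, endothelial and muscle fiber sums were highest in trained muscles at 10 days. Ctss was highest in the second trained muscle at 30 days, Lamp2 in the third at 20 days, and Ctsh and Ctsk in the first at 10 days. Ctsc, Ctsd and Lamp1 were highest in control muscles. The most abundant macrophage and monocyte marker was Lyz2, the lysozyme of these cells, with 13.7 in control and 71.6 at 2 days (log2 change 2.23, adjusted p = 6.3e-08). C1qa went from 3.65 to 13.7 at 10 days (1.67, adjusted p = 1.8e-05). No marker of this list was at 0 in all libraries, and Mpeg1 was not among the genes of the table used here.

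Of 7 leukocyte and antigen presentation markers tested, 7, 7, 7 and 6 rose, or 7, 6, 6 and 6 with the block, with median log2 changes of 1.15, 0.98, 1.11 and 1.12. Their summed level was 41.4 to 98.9 in control muscles, with a median of 65.1, and 95.4, 195 and 175 at 2 days, 185, 148 and 95.5 at 10 days, 132, 142 and 165 at 20 days and 137, 149 and 181 at 30 days. The most abundant, Cd74, which encodes the invariant chain that cathepsin S cuts, rose from 30.4 to 67.3 at 2 days (1.12, adjusted p = 0.0013) and stood at 68.4 at 30 days (1.20, adjusted p = 0.0011). RT1-Da, a class II chain, went from 13.1 to 33.3 at 30 days (1.36, adjusted p = 0.0012). Neutrophil markers (3 of 6 in the table) and T and B lymphocyte markers (2 of 8 in the table) were too low to be tested, with mean sums of 0.845 and 0.115 in control muscles. Over all 24 libraries S100a9 and Cd2 were the most abundant of their lists, with control means of 0.508 and 0.0390, although in control muscles the mean of Cd79a was above that of Cd2.

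Of 7 fibroblast markers tested, 4, 6, 6 and 6 rose, or 6, 6, 5 and 5 with the block, with median log2 changes of 0.46, 0.89, 1.18 and 1.09. Their summed level ran from 91.1 through 197 to 281 in control muscles, against 323, 521 and 438 at 2 days, 1024, 636 and 543 at 10 days, 635, 605 and 658 at 20 days and 392, 451 and 453 at 30 days. All trained muscles lay above the control range, and the first animal at 10 days was the highest. Its trained muscle was also the highest for Ctsk and Ctsh and for no other of the 10 genes. Col3a1, the most abundant, went from 56.9 to 349 at 10 days (2.64, adjusted p = 8.0e-08), and Col1a1 from 32.9 to 210.3 (2.65, adjusted p = 1.2e-06).

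Of 7 endothelial markers, none, 3, 4 and 3 rose and 1 fell at 2 days, or none, 3, 3 and 2 and none with the block. Their median log2 change was -0.21, 0.39, 0.63 and 0.28, with sums of 48.4 ± 4.14 (SD, n = 12) in control and 77.5 ± 8.73 (SD, n = 3) at 20 days. Cdh5, the most abundant, went from 15.6 to 25.4 at 20 days (0.68, adjusted p = 0.0018), and Cldn5 from 5.41 to 11.7 (0.96, adjusted p = 0.00097). Of 4 satellite cell and myoblast markers, 2 rose at 2 days and 1 at 10 days, or 1, 1, 0 and 1 with the block. The median log2 change of this list was 0.44, 0.32, -0.01 and -0.21 in turn. Sums were 34.3 ± 7.71 (SD, n = 12) in control and 49.5 ± 18.0, 35.9 ± 3.47, 28.3 ± 5.57 and 25.8 ± 1.89 (SD, n = 3 each) at 2, 10, 20 and 30 days. Myod1 was the most abundant, at 23.0 in control and 21.0, 20.9, 16.8 and 16.1 at these times. Myog rose from 6.63 to 22.1 at 2 days (1.41, adjusted p = 0.00052), and Myf5 had 0.473 and 1.12 (0.54, adjusted p = 0.0086, and 0.088 with the block). Of 8 muscle fiber markers, 1, 4, 2 and 1 rose and 3 fell at each time, or 1, 2, 2 and 1 and 2, 3, 1 and 1 with the block. Acta1, at 25377 in control, was the most abundant, and Actn3 fell from 3569 to 850 at 30 days (-2.18, adjusted p = 1.6e-08). Mb fell at 2 days (-0.64, adjusted p = 0.00053) and rose at 20 days (0.74, adjusted p = 0.00018). The part of these cell types in the changes of the 10 genes was not tested.

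**Figure D3:**
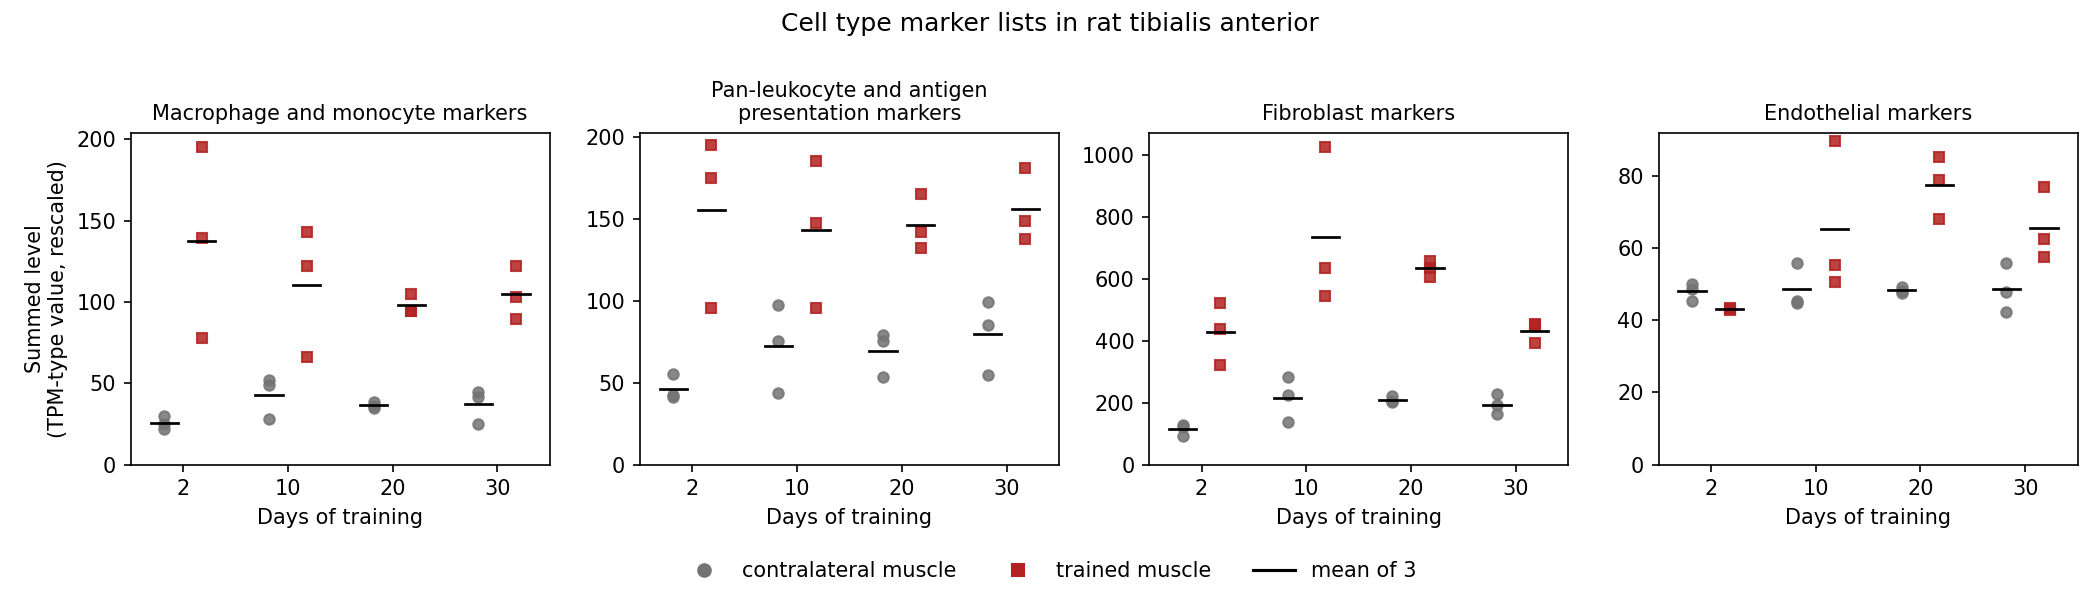
Summed level of the genes of each of 4 marker lists (vertical axis, rescaled TPM-type value) against days of training (horizontal axis) in 24 muscles. Gray circles are contralateral muscles, red squares trained muscles and black lines means of 3. Macrophage sums were 66.2 to 195 in trained and 21.7 to 51.7 in contralateral muscles.

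The genes most alike in pattern to the mean of the 10 standardized profiles, among 5865 genes with a mean of at least 5, were LOC100360413 (Pearson r = 0.93 over 24 libraries), AABR07054368.1 (0.91), Actr3 (0.91), Qsox1 (0.91) and Nupr1 (0.91). These r values take in the difference between trained and contralateral muscles and the pairs of legs from 12 animals. For single genes the highest r belonged to Mustn1 (0.96), Vim (0.96) and Lgmn (0.96) for Ctsb, Bag3 (0.95), Ptpn12 (0.95) and Lgmn (0.95) for Ctsa, and Ppial4d (0.94), S100a10 (0.89) and C1qb (0.89) for Ctsl. Ctsh was closest to Serpinf1 (0.94), Postn (0.94) and Scpep1 (0.93), Ctsk to Smoc2 (0.90), Ecm1 (0.90) and Ctsh (0.90), and Ctss to Ctsh (0.90), LOC100360413 (0.90) and Postn (0.89). Lamp2 was closest to Picalm (0.84), Nfe2l2 (0.79) and Gbe1 (0.77), and Ctsd to Gmpr (0.87), Gpi (0.85) and Ppt2 (0.83). Ctsc and Lamp1, with no call, reached at most 0.69 (RGD1560821, then Mier1 with 0.68 and Cyp20a1 with 0.67) and 0.73 (Tmem120a, then Stub1 with 0.71 and Smarcd3 with 0.70).

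Lysosomal genes often carry the E-box letters CACGTG, the core of the element that MiT/TFE factors such as TFEB bind, so the start regions of the 10 genes were searched on both strands. RefSeq sequence of GRCr8, from 250 bases before to 50 after the start, matched 9 of 10 genes, with Ctsb missing. Of these 9, 2 held CACGTG, Ctsd and Lamp1, against 6.65% of 27457 promoters of the same length, and the same 2 held the longer TCACGTGA, which contains it, against 0.867%. TGANTCA, the AP-1 letters, was in none of the 9 and in 7.33% of all promoters. A match describes letters and not a bound site, and its absence speaks of this window alone. The letters began at bases -157 and -10 of Ctsd, and at bases -183, -167, -150, -65 and -38 of Lamp1. Both genes were without a call at all 4 time points in the main limma fit. The 2-day change of Ctsd was a fall past the threshold under 10 of 34 alternatives, and both genes fell at 30 days in the values as deposited. Ctsa, Ctsc, Ctsh, Ctsk, Ctsl, Ctss and Lamp2 held no match, and of these Ctsc had no call either. The 250 bases before the start are printed for Ctsd and Lamp1, at chr1:206968822-206969071 and chr16:83075064-83075313, both on the minus strand. They are also printed for Ctsl, at chr17:769854-770103 on the plus strand, as 1 example of a gene without a match. Ctsl rose at 2 and 10 days in the main fit. Capitals mark CACGTG.
Ctsd: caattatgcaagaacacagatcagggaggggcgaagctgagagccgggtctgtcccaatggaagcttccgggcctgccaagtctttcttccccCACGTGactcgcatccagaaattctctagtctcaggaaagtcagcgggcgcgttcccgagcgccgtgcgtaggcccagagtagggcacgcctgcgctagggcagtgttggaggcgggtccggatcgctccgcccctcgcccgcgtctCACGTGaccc
Lamp1: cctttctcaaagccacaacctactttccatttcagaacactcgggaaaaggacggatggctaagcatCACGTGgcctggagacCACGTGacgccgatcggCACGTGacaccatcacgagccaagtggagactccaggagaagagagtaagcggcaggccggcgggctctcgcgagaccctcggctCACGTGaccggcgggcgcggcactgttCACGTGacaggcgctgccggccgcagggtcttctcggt
Ctsl: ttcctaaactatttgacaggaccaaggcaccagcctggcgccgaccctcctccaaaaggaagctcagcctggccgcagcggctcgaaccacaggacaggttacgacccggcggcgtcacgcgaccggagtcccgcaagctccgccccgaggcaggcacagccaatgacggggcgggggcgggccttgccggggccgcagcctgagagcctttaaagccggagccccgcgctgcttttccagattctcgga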

How the data were processed

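Polyadenylated RNA of 24 muscles was sequenced on an Illumina NextSeq550 as paired-end reads from a directional kit. Per the study's methods and the submitters' processing notes, the authors aligned reads with STAR in Partek Flow to Rnor_6.0 (rn6) and quantified Ensembl transcripts. The deposited transcript table held 20027 transcripts and its values, although named as normalized counts, were TPM-type: each library added up to 634431. A deposited gene-level signal table, scaled by the authors in a way not stated, held 4635 genes and was used as an alternative. A table of the authors' own comparisons (p-values, ratios and group means) was not used.

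Transcript values were divided by median-of-ratios factors (16230 transcripts above 0 in every library, factors 0.778 to 1.14) and summed per gene symbol. The 11196 genes that reached 1 in 3 or more libraries, all 10 members among them, were tested with limma 3.58.1 in R 4.3.3 on log2(value + 1), with 5 groups: 12 control muscles and 4 trained groups of 3. P-values were Benjamini-Hochberg adjusted over all genes at 0.05. A fit with 8 groups, a leg and time point each, gave the contralateral test and the within-animal difference. The fit was also run on simulated data, with independent noise for each muscle and changes planted at 10 days alone, in genes without low values. That simulation did not cover paired legs, differences in scaling or changes of genes with low values. Python 3.11.15, numpy 2.4.6, pandas 2.3.3 and matplotlib 3.10.9 were used.

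Animal numbers in the labels paired the legs. Deviations from group means correlated with a median r of 0.174 within animals (0.0277 to 0.343, above 0.1 in 8 of 12 pairs) and -0.100 between animals of a time point. No pair among 276 library pairs was identical.

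Depth was read from single-exon transcripts, whose values times length stepped in whole reads or read pairs: 1 read on 1000 bases was worth 0.0981 to 0.172. Median reads per 1000 bases ran from 20.2 for Ctss to 1498 for Ctsd. Such precision covers counting error only.

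The members and gene lists were chosen with earlier results of these data known. All members were described. From each list the 2 genes past the threshold at most time points were named, ties by the mean absolute log2 change. The genes of like pattern were the 5 with the highest r to the mean profile and 3 for each member. Alternatives were other scaling, pseudocount, filters, pairing, control groups, source table, transcript choice, variance trend and threshold, and leaving out each muscle.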

Additional observations from a re-analysis of the deposited data

Results flagged for a closer look

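Ctsk differed among the 4 trained groups (F test in limma, adjusted p = 0.0207), with mean levels of 3.54, 8.29, 5.81 and 4.59 after 2, 10, 20 and 30 days against 2.24 in control muscles. It was picked out because its trained levels, against the same 12 control muscles, differed between time points by this test. When the animal is a replicate block, the F test compares the within-animal changes instead, and there Ctsk did not pass (F = 3.27, adjusted p = 0.311). The call on levels was also lost with a pseudocount of 0.1 (adjusted p = 0.060), without the second trained muscle at 2 days (adjusted p = 0.063) and without the first at 10 days (adjusted p = 0.098). The test of the within-animal change at 30 days against 2 days gave -0.0045 on the log2 scale (adjusted p = 1.00).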

How the results depend on the processing

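Over 1660 refits of single members (40 changes against control and 10 within-animal differences, under up to 34 alternatives each), 1609 stayed on their side of the threshold, 36 calls were lost, 15 were gained and no called change turned its sign. Of 25 calls, 15 held under every alternative run for them. With adjusted p under 0.01, 1958 of 11196 genes were called at 2 days and 571 for a difference among trained groups. Among the members these counts were 3 and 0. That last count was also 0 with a pseudocount of 0.1, a mean of at least 10 or, for within-animal changes, the replicate block, and 5 in the values as deposited. As deposited, 2533 of 11262 genes passed that test, against 1345 of 11196 in the main fit. Between 30 and 2 days, 4 members were called in the values as deposited, and 1 each with a mean of at least 10 and in the gene-level table. Over all genes these settings called 3294 of 11262, 1137 of 3841 and 1285 of 4635 in turn. The cause was not tested. Leaving out 1 muscle gave 3 to 8 members at 2 days, 5 to 6 at 10 days, 5 to 7 at 20 days, 5 to 6 at 30 days, 0 to 1 for a difference among trained groups, 0 to 1 between 30 and 2 days and 0 among contralateral groups each time. With the replicate block the counts were 7 (6 risen, without Lamp2, and Ctsd fallen), 5, 5 and 4 at 2, 10, 20 and 30 days, and the calls of these 10 genes it changed are given beside each gene, since it changed no other of their calls. With the control muscles of each time point alone they were 7 (split in the same way), 5, 4 and 4. Under that setting 2196, 2007, 1589 and 1121 of 11196 genes were called in turn. Members risen at all 4 time points numbered 5 of 10, against 5.24% of all genes, and alternatives for this count were added after seeing the data. It was 1 of 10 against 3.24% with adjusted p under 0.01, and 3 of 8 against 6.12% with a mean of at least 10. With the control muscles of each time point alone it was 3 of 10 against 2.93%. On leaving out 1 muscle it was 2 to 5, against 3.98% to 5.49% of all genes. Over all genes the replicate block called 2417, 2252, 1944 and 1377 at 2, 10, 20 and 30 days, in place of 3235, 3240, 2393 and 2304. A mean of at least 10 removed Ctsk and Ctss, and the gene-level table held 6 members. Groups of 3 muscles and, for Ctsk and Ctss, few reads limit precision.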
